A study of Saccharomyces cerevisiae BY4741 with 6 samples.

Results

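The pentose phosphate pathway of budding yeast was followed through 10 of its genes, out of 5631 rows in the table of read counts. They were chosen by name as 4 pairs of paralogs and 2 single genes, ZWF1, SOL3, SOL4, GND1, GND2, RKI1, TKL1, TKL2, TAL1 and NQM1, and all 10 passed the filter on low counts. The choice was made with the strain comparison of these data in view, TKL2 being singled out, so strain differences of the 10 genes are given as descriptions and support nothing by themselves. The tested strain was a pex3 deletion of Saccharomyces cerevisiae BY4741 in which kanMX4 replaces PEX3 (YDR329C), grown in 3 cultures, and its control was BY4741 wild type (WT), also grown in 3 cultures. Both strains are MATa haploids of the laboratory background with the his3Δ1, leu2Δ0, met15Δ0 and ura3Δ0 alleles, so neither can make histidine, leucine, methionine or uracil unaided. Cells of both strains were pre-grown on 0.5% glucose, diluted 2 times into mineral medium with 0.5% acetate at 30 °C and harvested at an optical density of 0.5. Without Pex3 no functional peroxisomes form, and each strain is a single deposited line, so the replicates are cultures of one line. The study asks whether loss of peroxisomes changes the transcriptome on acetate, a carbon source that derepresses many peroxisomal genes.

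The pathway branches from glycolysis at glucose-6-phosphate. Its oxidative branch makes NADPH and ribulose-5-phosphate in a row of dehydrogenase, lactonase and dehydrogenase steps, and its non-oxidative branch exchanges carbon units between sugar phosphates reversibly, which lets cells make ribose when sugars are short. On acetate there is no sugar in the medium, so the hexose phosphates come from gluconeogenesis. Yeast keeps paralogs of several enzymes. TKL1, GND1, SOL3 and TAL1 are known as the main copies in glucose-grown cells and are called first copies here, while TKL2, GND2, SOL4 and NQM1 are known to be expressed more on poor carbon sources or under stress and are called second copies.

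The libraries held 7682260 to 9395281 counts in pex3 and 6782522 to 9410398 in WT, and counts of the 10 genes ranged from 405 to 6522. Levels are given as CPM, counts scaled to a common total with TMM factors, and are divided by coding length in kilobases where genes are compared with each other. Replicate 1 of each strain stood apart from the other cultures of that strain. A chi-square test of 2 libraries' counts gave, per degree of freedom, 15.6 and 26.0 for pex3 replicate 1 against pex3 replicates 2 and 3, and 6.79 between those. The same values were 20.2 and 33.7 for WT replicate 1 against WT replicates 2 and 3, and 6.85 between those. Across strains they were 10.8 to 13.5 among replicates 2 and 3, below the values of either replicate 1 against its own strain. The largest value of any pair was 43.5, for pex3 replicate 1 against WT replicate 1. Without pex3 replicate 1 the log2 fold changes of TKL2, GND2, NQM1 and SOL4 were -0.90, -0.60, -0.44 and -0.35, and without WT replicate 1 they were -0.69, -0.70, -0.35 and -0.27. The deviation of log2 CPM from its mean over libraries had a rank correlation with coding length, taken across genes, of between -0.16 and 0.16 in pex3 and of 0.34, -0.13 and -0.39 in WT replicates 1, 2 and 3. The MATa-specific genes STE2, STE6 and BAR1 summed to 597 to 630.4 CPM in pex3 and 613 to 701 CPM in WT. The alpha-specific genes STE3 and MF(ALPHA)1 summed to 32.3 to 39.2 CPM in pex3 and 39.0 to 44.8 CPM in WT, and none of these markers was at 0. PEX3 itself was not analysed here. In bulk RNA, a lower level in all cells and a smaller share of cells with the transcript cannot be told apart.

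The 10 genes split by copy. All 4 second copies had lower CPM in every pex3 culture than in any WT culture, with log2 fold changes from -0.95 to -0.48 and a median of -0.60. The 6 first copies and single genes overlapped between strains, with log2 fold changes from -0.11 to 0.15 and a median of -0.01, where the median over all 5628 tested genes was 0.006. At an adjusted p of 0.05 in the edgeR quasi-likelihood test over all genes, 0 of the 10 were called, against 0.178% of all genes, while DESeq2 called 3 of them (TKL2, GND2 and NQM1), against 1.03% of all genes. An unadjusted edgeR p under 0.05 was reached by 4 of the 10, the second copies, where 9.08% of all genes reached it and 5.15% reached it in the lower direction. The libraries of pex3 lay below those of WT without overlap for 7.73% of all genes. The strain comparison was part of how these genes were chosen, so these counts are not read as evidence about the pathway.

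**Figure D1:**
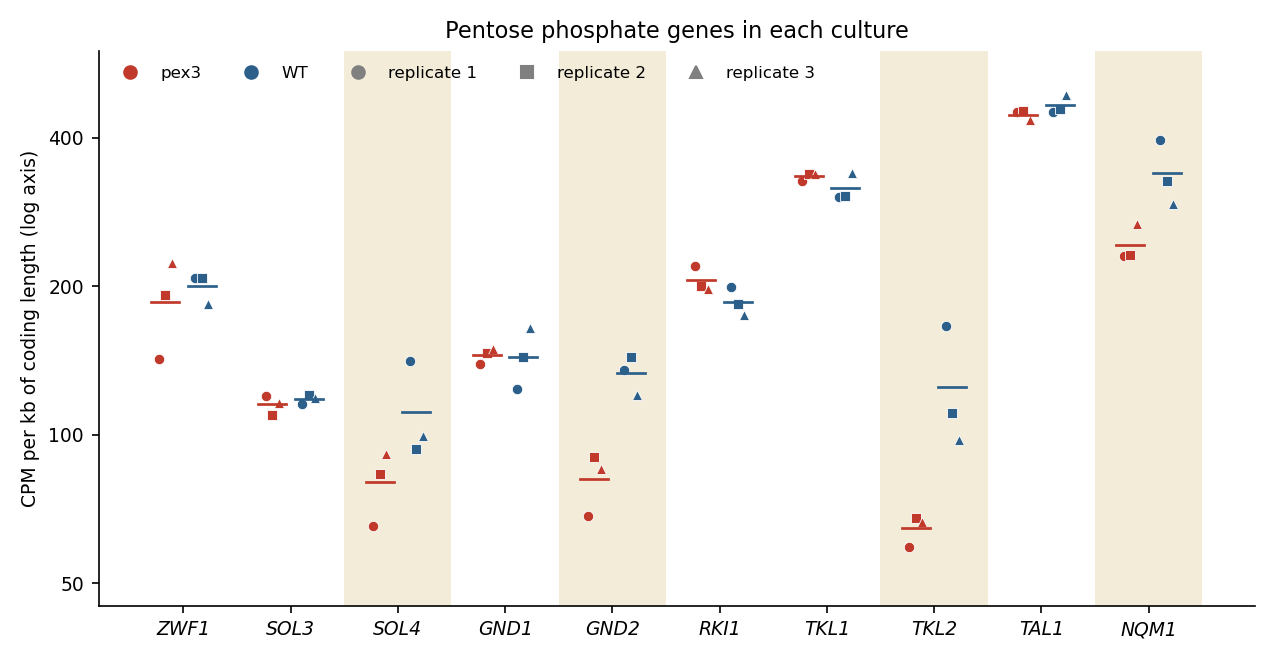
Level of each of the 10 genes in CPM per kilobase of coding length on a log axis, with 1 point per culture (pex3 red, left; WT blue, right) and bars at the strain means. In the 4 shaded second copies all pex3 points lie below all WT points, and in the unshaded genes the strains overlap.

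**Figure D2:**
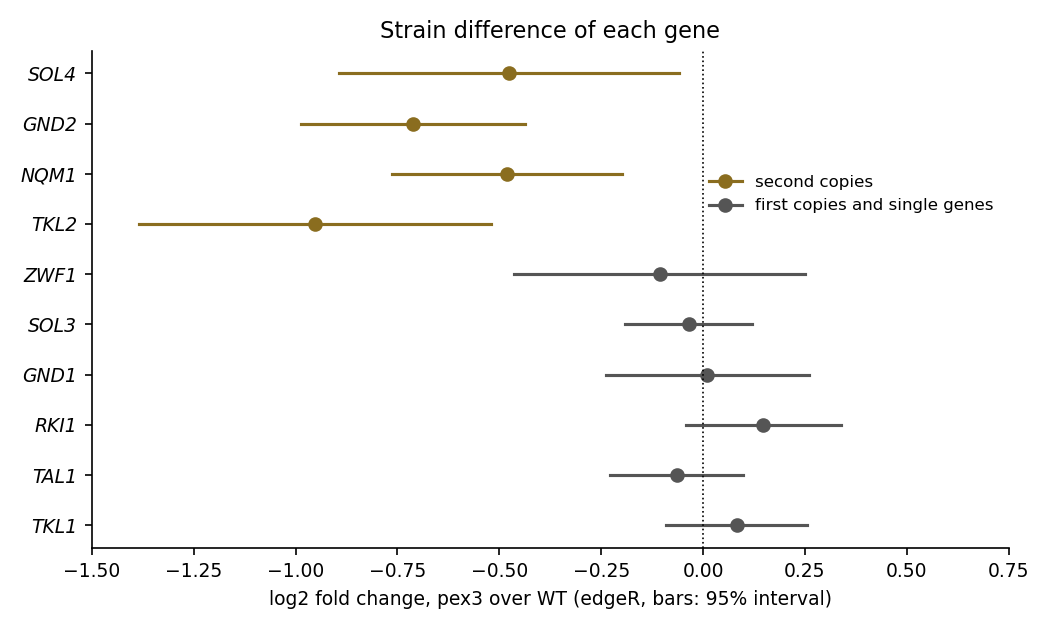
Log2 fold change of pex3 over WT for each gene from the edgeR fit, with 95% intervals of the fit as bars. TKL2 lies at -0.95 and GND2 at -0.71, and the 6 first copies and single genes lie between -0.11 and 0.15.

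The copies of a pair were distinguishable at the level of sequence. The coding sequences of TKL2 and TKL1 were 69.1% identical over 2043 aligned bases in the R64 reference, those of GND2 and GND1 79.1% over 1470, those of NQM1 and TAL1 68.2% over 1001 and those of SOL4 and SOL3 58.2% over 746. No stretch of 25 bases was shared exactly within any pair, and no 50-base window of any of the 10 coding sequences occurred a further time in the genome. The longest exact runs are printed for the transketolases and the 6-phosphogluconate dehydrogenases, the pairs whose ratio differed most between strains, because they show how soon a read would meet a distinguishing base. Capitals mark the shared run, of 17 bases in the transketolases and 20 bases in the dehydrogenases, with 15 bases on either side, 5′ to 3′ on the coding strand.
TKL2, chrII:475880-475926, minus strand: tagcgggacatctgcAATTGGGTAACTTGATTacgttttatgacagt
TKL1, chrXVI:694281-694327, minus strand: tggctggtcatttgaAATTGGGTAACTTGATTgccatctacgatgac
GND2, chrVII:1004654-1004703, plus strand: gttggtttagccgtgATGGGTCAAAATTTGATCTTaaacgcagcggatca
GND1, chrVIII:470981-471030, plus strand: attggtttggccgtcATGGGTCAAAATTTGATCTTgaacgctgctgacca

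TKL2 (YBR117C, chrII:474392-476437, minus strand, 1 coding exon) encodes a transketolase, which moves a carbon unit between sugar phosphates in the non-oxidative branch. Its counts were 980, 1300 and 1036 in pex3 replicates 1, 2 and 3, against 2553, 1548 and 1884 in the WT replicates. Per length, TKL2 stood at 59.3, 67.7 and 66.5 CPM per kilobase in pex3 and at 166, 111 and 97.7 in WT. The pex3 cultures lay close together and all below the lowest WT culture, while WT replicate 1 lay far above the other WT cultures. The mean was 132 ± 9.32 CPM in pex3 and 256 ± 74.5 CPM in WT (SD, n = 3 each). The log2 fold change was -0.95 (SE 0.19, 95% interval -1.38 to -0.52), the 24th lowest of the 5628 genes. Its edgeR adjusted p was 0.179 and lay between 0.000161 and 0.588 over 15 alternative fits, with the lowest value from DESeq2. Without WT replicate 1 the log2 fold change was -0.69 and the edgeR adjusted p 0.0345, so TKL2 was then called.

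TKL1 (YPR074C, chrXVI:692796-694838, minus strand, 1 coding exon), the other transketolase, stood at 327, 338 and 337 CPM per kilobase in pex3 and at 303, 305 and 339 in WT. The strains overlapped, with WT replicate 3 the highest culture. Its log2 fold change was 0.08 (SE 0.07, 95% interval -0.09 to 0.26, edgeR adjusted p 0.726). TKL2 supplied 15.3%, 16.7% and 16.5% of the length-scaled transketolase counts in pex3, against 35.4%, 26.6% and 22.4% in WT. The share averaged 16.2 ± 0.723% in pex3 and 28.2 ± 6.66% in WT (SD, n = 3 each), without overlap. Summed over both copies, transketolase stood at 399 ± 10.6 CPM per kilobase in pex3 and 440.4 ± 26.9 in WT (SD, n = 3 each), a difference of -9.5% in the mean with no overlap between cultures.

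GND2 (YGR256W, chrVII:1004624-1006102, plus strand, 1 coding exon) encodes a 6-phosphogluconate dehydrogenase, the second NADPH-forming step of the oxidative branch. It stood at 68.3, 90.3 and 85.1 CPM per kilobase in pex3 and at 135, 144 and 120.3 in WT. All pex3 cultures lay below all WT cultures, and pex3 replicate 1 was the lowest. The mean was 120.1 ± 17 CPM in pex3 and 197 ± 17.6 CPM in WT (SD, n = 3 each). The log2 fold change was -0.71 (SE 0.12, 95% interval -0.99 to -0.44). Its edgeR adjusted p was 0.105, and 6.11e-05 to 0.434 over the 15 alternatives, again with the lowest from DESeq2. Leaving out single cultures moved its fold change from -0.80 to -0.60, and it was the second copy that moved least in proportion.

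GND1 (YHR183W, chrVIII:470960-472429, plus strand, 1 coding exon), the first copy, stood at 139, 147 and 149 CPM per kilobase in pex3 and at 124, 144 and 164 in WT. The pex3 cultures fell inside the WT range, and the log2 fold change was 0.01 (SE 0.11, 95% interval -0.24 to 0.26, edgeR adjusted p 0.985). GND2 supplied 32.9%, 38.1% and 36.3% of the dehydrogenase counts per length in pex3, against 52.2%, 50.02% and 42.3% in WT. GND1 exceeded GND2 in all 3 pex3 cultures and in WT replicate 3, and the copies were near parity in WT replicates 1 and 2. The total of both copies was 226 ± 16.3 CPM per kilobase in pex3 and 277 ± 15.7 in WT (SD, n = 3 each), a difference of -18.3% without overlap.

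NQM1 (YGR043C, chrVII:580435-581436, minus strand, 1 coding exon) encodes a transaldolase of uncertain role that is known from stationary-phase cells. It stood at 229.8, 231 and 267 CPM per kilobase in pex3 and at 396, 327 and 294 in WT. The strains were apart, with the closest approach between pex3 replicate 3 and WT replicate 3. The mean was 243 ± 21 CPM in pex3 and 339.5 ± 52.2 CPM in WT (SD, n = 3 each). The log2 fold change was -0.48 (SE 0.12, 95% interval -0.76 to -0.20, edgeR adjusted p 0.373, and 0.0457 to 0.842 over the alternatives).

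TAL1 (YLR354C, chrXII:836350-837357, minus strand, 1 coding exon), the transaldolase that links sedoheptulose phosphate to glycolytic intermediates, had the highest level per length of the 10 genes. It stood at 449.8, 452 and 433 CPM per kilobase in pex3 and at 451, 457 and 489 in WT, so the strains overlapped. Its log2 fold change was -0.06 (SE 0.07, 95% interval -0.23 to 0.10, edgeR adjusted p 0.781). NQM1 supplied 33.8%, 33.8% and 38.1% of the pair in pex3, against 46.7%, 41.7% and 37.5% in WT. The shares overlapped because pex3 replicate 3 lay above WT replicate 3. The total was 688 ± 11 CPM per kilobase in pex3 and 804 ± 37.2 in WT (SD, n = 3 each), a difference of -14.5% without overlap.

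SOL4 (YGR248W, chrVII:985972-986739, plus strand, 1 coding exon) encodes a 6-phosphogluconolactonase, the middle step of the oxidative branch. It stood at 65.3, 83.3 and 91.5 CPM per kilobase in pex3 and at 141, 93.6 and 99.4 in WT. The strains were just apart, since pex3 replicate 3 and WT replicate 2 nearly met, and WT replicate 1 was far above the rest. The mean was 61.5 ± 10.3 CPM in pex3 and 85.5 ± 19.9 CPM in WT (SD, n = 3 each). The log2 fold change was -0.48 (SE 0.18, 95% interval -0.89 to -0.06, edgeR adjusted p 0.507). Without WT replicate 1 it was -0.27, so SOL4 was the second copy whose difference rested most on that culture.

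SOL3 (YHR163W, chrVIII:423724-424473, plus strand, 1 coding exon), the first lactonase copy, stood at 120.02, 109.8 and 116 CPM per kilobase in pex3 and at 115, 120.3 and 119 in WT. The strains overlapped, and the log2 fold change was -0.04 (SE 0.07, 95% interval -0.19 to 0.12, edgeR adjusted p 0.888). SOL3 varied little, with a biological coefficient of variation in the lowest 1.07% of all genes. SOL4 supplied 35.2%, 43.1% and 44.1% of the lactonase counts per length in pex3, against 55.1%, 43.8% and 45.6% in WT, and these shares overlapped. The total was 195 ± 11.1 CPM per kilobase in pex3 and 229 ± 23.3 in WT (SD, n = 3 each), a difference of -14.9% without overlap. SOL4 and GND2 lie 17.9 kb apart on chromosome VII, and SOL3 and GND1 lie 46.5 kb apart on chromosome VIII.

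**Figure D3:**
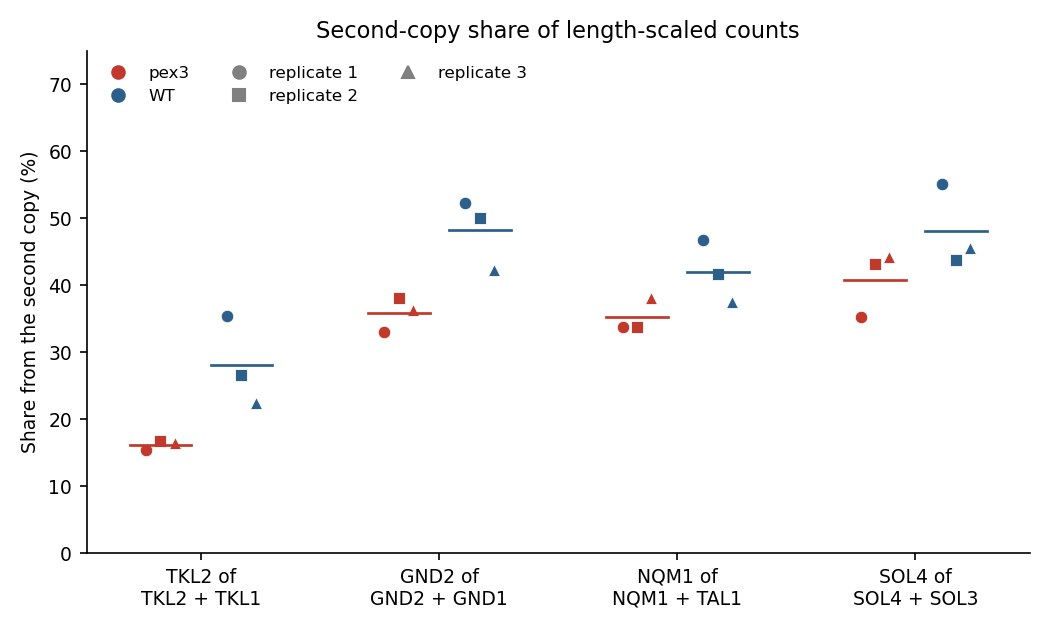
Percentage of each pair's length-scaled counts that came from its second copy, with 1 point per culture (pex3 red, left; WT blue, right) and bars at the strain means. The pex3 points lie below the WT points without overlap for TKL2 and GND2, and overlap them for NQM1 and SOL4.

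Put as a ratio within each library, which needs no scaling between libraries, the log2 ratio of TKL2 to TKL1 was -2.37 ± 0.08 in pex3 and -1.37 ± 0.47 in WT (SD, n = 3 each), a difference of -1.0. The difference was -0.74 for GND2 to GND1, -0.43 for SOL4 to SOL3 and -0.41 for NQM1 to TAL1. The strains did not overlap in the ratio of the transketolases and of the dehydrogenases, and they overlapped in the ratios of the lactonases and transaldolases. Without WT replicate 1 these differences were -0.75, -0.62, -0.23 and -0.27, in the same order of pairs. The exact 95% binomial interval of a raw share had a half-width of at most 1.15, 1.88, 2.97 and 1.33 percentage points in any library, in that order. The mean length-scaled shares differed by -12.0, -12.4, -7.3 and -6.7 points. Counting error was thus small beside the share differences of the transketolases and dehydrogenases. For the lactonases the intervals of pex3 replicates 2 and 3, 41.1% to 46.4% and 41.9% to 47.6%, each overlapped those of WT replicates 2 and 3. Those WT intervals were 41.4% to 47.3% and 43.7% to 48.7%. For the transaldolases the intervals of replicate 3 of each strain overlapped. Such intervals cover counting error only.

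The single genes sit at the entry and at the branch point. ZWF1 (YNL241C, chrXIV:196426-197943, minus strand, 1 coding exon), the glucose-6-phosphate dehydrogenase that commits carbon to the oxidative branch, stood at 142, 192 and 223 CPM per kilobase in pex3 and at 208, 208 and 184 in WT. The strains overlapped, and pex3 replicate 1 was well below every other culture. The log2 fold change was -0.11 (SE 0.15, 95% interval -0.46 to 0.25, edgeR adjusted p 0.839), and without pex3 replicate 1 it was 0.05. RKI1 (YOR095C, chrXV:503552-504328, minus strand, 1 coding exon), the ribose-5-phosphate isomerase, stood at 220.1, 200.5 and 198 CPM per kilobase in pex3 and at 199, 184 and 174 in WT. Its strains overlapped through WT replicate 1 alone. The log2 fold change was 0.15 (SE 0.08, 95% interval -0.04 to 0.34, edgeR adjusted p 0.59).

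The order of mean levels differed between strains, with TAL1 first and GND1 sixth in both. In pex3 the order from the highest was TAL1, TKL1, NQM1, RKI1, ZWF1, GND1, SOL3, GND2, SOL4 and TKL2. The neighbours RKI1 and ZWF1, ZWF1 and GND1, GND2 and SOL4, and SOL4 and TKL2 overlapped in their culture ranges there. In WT the order was TAL1, NQM1, TKL1, ZWF1, RKI1, GND1, GND2, TKL2, SOL3 and SOL4. Neighbours in the WT order were apart only between TAL1 and NQM1, between TKL1 and ZWF1 and between RKI1 and GND1, so from GND1 down no neighbours could be ranked. TKL2 had the lowest mean of the 10 genes in pex3, though its range met that of SOL4, and the third lowest mean in WT. All 10 genes were well expressed, from percentile 69.7 of the levels of 5515 genes with a coding length for TKL2 to percentile 93.5 for TAL1.

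The second copies varied more between cultures than their partners in 3 of the 4 pairs in WT and in every pair in pex3. The highest WT culture exceeded the lowest 1.70-fold for TKL2 and 1.12-fold for TKL1. It exceeded the lowest 1.51-fold for SOL4 and 1.04-fold for SOL3, and 1.35-fold for NQM1 and 1.08-fold for TAL1. For the dehydrogenases the order was reversed in WT, with 1.20-fold for GND2 and 1.33-fold for GND1. In pex3 the highest culture exceeded the lowest 1.14-fold for TKL2 and 1.03-fold for TKL1, and 1.32-fold for GND2 and 1.07-fold for GND1. It did so 1.16-fold for NQM1 and 1.04-fold for TAL1, and 1.40-fold for SOL4 and 1.09-fold for SOL3. Across all tested genes the median of this ratio was 1.16 in pex3 and 1.18 in WT. Ranked by this ratio among all genes, TKL2 lay at percentile 44.4 in pex3, near the middle, and at percentile 92.3 in WT. Its wide WT spread came from replicate 1, at 340 CPM against 227 and 200 in WT replicates 2 and 3. ZWF1 showed the other order, at percentile 92.8 in pex3 and percentile 34.6 in WT.

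**Figure D4:**
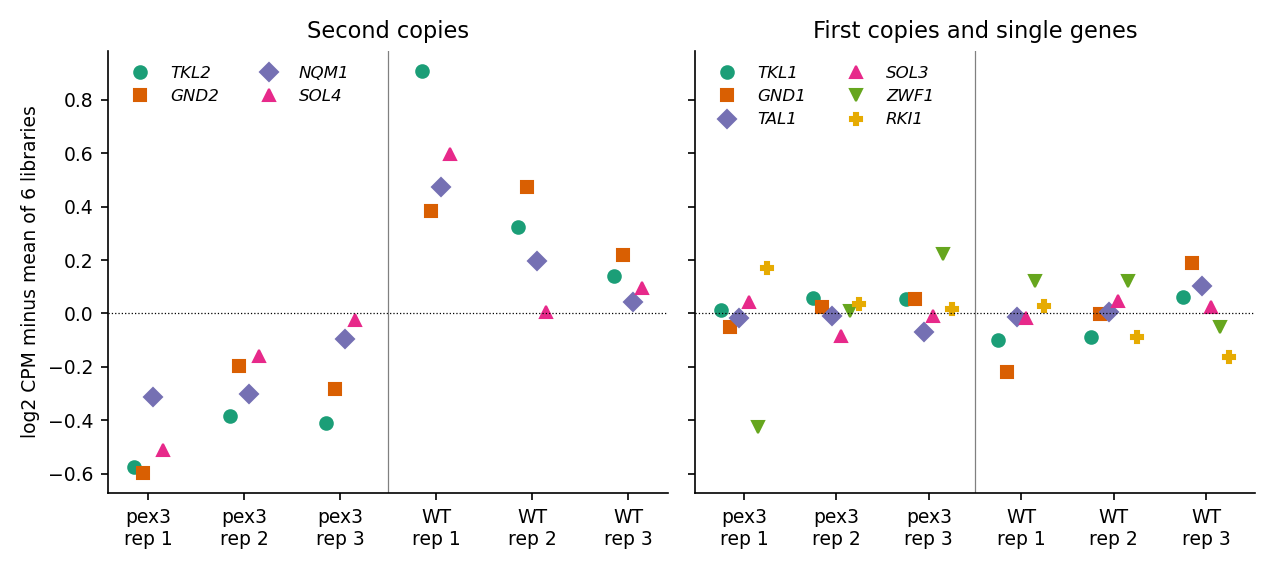
Log2 CPM of each gene minus its mean over the 6 libraries, per library (pex3 left of the line, WT right). The 4 second copies lie below 0 in all pex3 libraries and above 0 in all WT libraries, with TKL2 highest in WT replicate 1 at 0.91, and of the first copies and single genes the lowest value is that of ZWF1 in pex3 replicate 1 at -0.43.

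Likeness to TKL2 was measured as the root mean square difference between centred log2 CPM over the 6 libraries, among 5350 other genes with a mean count of at least 50. The median gene differed from TKL2 by 0.53, and TKL2 itself deviated from its mean by 0.52 on that scale. The 5 nearest genes were PRM10 at 0.09, YBR116C at 0.11, HAB1 at 0.12, GIP2 at 0.13 and RTN2 at 0.15. PRM10 and HAB1 were sparse, with mean counts of 66 and 58.5, while RTN2, a reticulon gene, averaged 167 ± 22.6 CPM in pex3 and 269 ± 74.1 CPM in WT (SD, n = 3 each). By its systematic name YBR116C is the next reading frame to TKL2 on the same arm and strand. It has no entry in the RefSeq annotation used here, so whether its reads belong to the TKL2 transcript was not tested. YBR116C averaged 14.4 ± 0.445 CPM in pex3 and 24.9 ± 5.97 CPM in WT (SD, n = 3 each). Among the 10 pathway genes GND2 was nearest to TKL2 at 0.24, rank 53, followed by NQM1 at 0.26, rank 66, and SOL4 at 0.26, rank 73. ZWF1 came next at rank 1114, and the others at ranks 1925 to 3793, with GND1 the farthest. The distance spans both strains, so it includes the strain difference that was in view when the 10 genes were chosen. These ranks largely restate that difference and are not read as separate support.

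The sequences upstream of the genes were searched because the second copies had their lower levels in the same cultures. The window was the 300 bases before the start codon in R64, and the motif was the stress response element, bound by the transcription factors Msn2 and Msn4, spelled AGGGG or CCCCT on the coding strand. At least 1 match was present in all 4 second copies and in 4 of the 6 other genes, against 22.2% of 6007 promoters of the same length. GND1 and RKI1 had 0 matches, TKL2, SOL4, SOL3, TKL1 and TAL1 had 1 each, GND2 and NQM1 had 2 each, and ZWF1 had 5. At least 2 matches were found in 3.48% of all promoters and at least 5 in 0.0499%. The motif was thus present in genes of both kinds. The post-diauxic-shift element TNAGGGAT, searched on both strands, had 0 matches in the 10 windows and occurred in 2.55% of all. A match is a run of letters and was not tested as a binding site. The windows of the second copies are printed because these are the genes with lower levels in pex3, and that of ZWF1 because it had the most matches and overlapped between strains. Capitals mark the motif on either strand, and each sequence reads 5′ to 3′ toward the start codon.
TKL2 promoter, chrII:476438-476737, minus strand: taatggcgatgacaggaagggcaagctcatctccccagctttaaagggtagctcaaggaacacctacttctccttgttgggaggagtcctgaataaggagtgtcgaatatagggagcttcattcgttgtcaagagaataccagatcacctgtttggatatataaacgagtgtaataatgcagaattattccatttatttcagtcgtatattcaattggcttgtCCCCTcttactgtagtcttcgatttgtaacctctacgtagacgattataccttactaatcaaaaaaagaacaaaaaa
GND2 promoter, chrVII:1004324-1004623, plus strand: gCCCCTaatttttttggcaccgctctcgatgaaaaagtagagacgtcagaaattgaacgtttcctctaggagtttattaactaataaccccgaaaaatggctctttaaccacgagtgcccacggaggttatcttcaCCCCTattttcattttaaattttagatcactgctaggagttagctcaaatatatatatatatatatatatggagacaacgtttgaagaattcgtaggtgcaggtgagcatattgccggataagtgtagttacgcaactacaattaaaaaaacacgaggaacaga
NQM1 promoter, chrVII:581437-581736, minus strand: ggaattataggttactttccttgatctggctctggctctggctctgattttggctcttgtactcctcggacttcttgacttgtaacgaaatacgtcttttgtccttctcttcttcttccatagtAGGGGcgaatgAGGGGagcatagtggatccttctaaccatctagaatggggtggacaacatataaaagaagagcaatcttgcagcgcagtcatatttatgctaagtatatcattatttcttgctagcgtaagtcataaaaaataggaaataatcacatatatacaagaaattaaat
SOL4 promoter, chrVII:985672-985971, plus strand: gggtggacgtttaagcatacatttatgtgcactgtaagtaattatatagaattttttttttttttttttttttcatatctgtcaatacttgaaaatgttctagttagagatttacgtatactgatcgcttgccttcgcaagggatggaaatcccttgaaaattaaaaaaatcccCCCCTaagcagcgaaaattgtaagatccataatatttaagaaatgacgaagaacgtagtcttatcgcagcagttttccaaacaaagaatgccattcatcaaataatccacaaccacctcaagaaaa
ZWF1 promoter, chrXIV:197944-198243, minus strand: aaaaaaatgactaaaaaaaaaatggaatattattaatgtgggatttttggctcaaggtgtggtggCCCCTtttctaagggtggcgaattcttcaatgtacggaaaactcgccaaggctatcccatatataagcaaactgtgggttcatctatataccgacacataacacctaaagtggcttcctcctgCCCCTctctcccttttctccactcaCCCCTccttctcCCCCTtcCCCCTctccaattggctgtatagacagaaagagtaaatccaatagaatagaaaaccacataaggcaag

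The other genes of the pathway were compared in the same fit. Of 13 other genes of the pathway, of riboneogenesis and of ribose phosphate use, 0 passed the adjusted threshold in either direction in edgeR or DESeq2, 1 had an unadjusted edgeR p under 0.05, and 9 had a positive and 4 a negative log2 fold change. Of all genes, 9.08% had an unadjusted edgeR p under 0.05. The median of the 13 genes was 0.09, with a range from -0.17 to 0.29, against 0.006 over all genes. The largest differences were those of YDR248C at 0.29 (SE 0.12), the xylulokinase gene XKS1 at -0.17 (SE 0.14) and SOL2 at -0.15 (SE 0.08), with edgeR adjusted p from 0.527 to 0.681. RPE1, the epimerase that stands beside RKI1 in the pathway, measured 186 ± 6.61 CPM in pex3 and 174 ± 20.6 CPM in WT (SD, n = 3 each).

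Other sources and users of NADPH were compared in the same fit. Of 8 genes for other NADPH sources, 0 passed in edgeR, and the median was -0.02. An unadjusted edgeR p under 0.05 was reached by 2 of the 8, against 9.08% of all genes. MAE1, the mitochondrial malic enzyme gene, averaged 921 ± 38.9 CPM in pex3 and 702 ± 4.88 CPM in WT (SD, n = 3 each). The log2 difference was 0.39 (SE 0.07, edgeR adjusted p 0.118), and DESeq2 called it. IDP3, the peroxisomal isocitrate dehydrogenase gene, was at 0.29 (SE 0.11, edgeR adjusted p 0.501). ALD6, the cytosolic acetaldehyde dehydrogenase gene that also forms NADPH, averaged 2461 ± 221 CPM in pex3 and 2809 ± 59 CPM in WT (SD, n = 3 each), with a log2 difference of -0.19 (SE 0.08, edgeR adjusted p 0.539). Of 7 NADPH-using genes 0 passed in edgeR or DESeq2, 1 had an unadjusted p under 0.05 and the median was 0.01. GDH1, the glutamate dehydrogenase gene of ammonium assimilation, was the one, at 0.23 (SE 0.08, edgeR adjusted p 0.487).

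Transcripts of 10 regulators showed 0 calls in edgeR and DESeq2, against 0.178% and 1.03% of all genes. An unadjusted edgeR p under 0.05 was reached by 0 of the 10, against 9.08% of all genes. With shares this low over all genes, these counts are not read as an absence of change. The median log2 fold change of the regulators was -0.07. MSN2 and MSN4 were at 0.03 (SE 0.10) and -0.02 (SE 0.16), and STB5, a regulator of pentose phosphate genes under oxidative stress, was at -0.003 (SE 0.12). Transcript levels do not measure the activity of these factors, which was not tested. The largest values were those of MIG1 at -0.39 (SE 0.21), GIS1 at -0.37 (SE 0.18) and RPH1 at -0.18 (SE 0.18), and WT replicate 1 was the highest culture for each of these, at 210.3, 90.2 and 275 CPM.

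A list of 16 general stress genes, known targets of Msn2 and Msn4 among them, lay on the same side as the second copies. The list was chosen with earlier results of these data known, so it is not read as support for the difference of those copies. In edgeR 0 of the 16 passed in either direction, against 0.178% of all genes, and 15 had negative log2 fold changes. An unadjusted edgeR p under 0.05 was reached by 8, all in the lower direction, against 5.15% of all genes in that direction. DESeq2 called 2 of the 16, HSP26 and RTC3, against 1.03% of all genes. The median was -0.43, with a range from -0.81 to 0.07, against 0.006 over all genes. The largest differences were RTC3 at -0.81 (SE 0.16), ALD3 at -0.79 (SE 0.29) and the small heat shock protein gene HSP26 at -0.52 (SE 0.09). HSP26 averaged 1229 ± 122 CPM in pex3 and 1765 ± 86.2 CPM in WT (SD, n = 3 each), with no overlap, while HSP12 was at 0.07 (SE 0.15). The summed level of the list was 6739, 7522 and 7814 CPM in pex3 replicates 1, 2 and 3 and 10237, 8623 and 8645 CPM in the WT replicates. The lowest sum was in pex3 replicate 1 and the highest in WT replicate 1, the cultures in which TKL2, NQM1 and SOL4 were also lowest and highest. GND2 was lowest in pex3 replicate 1 too, but highest in WT replicate 2, at 213 CPM against 200 CPM in WT replicate 1. Without pex3 replicate 1 the list's median was -0.32, and without WT replicate 1 it was -0.20. The part of this list's difference in that of the second copies was not tested.

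**Figure D5:**
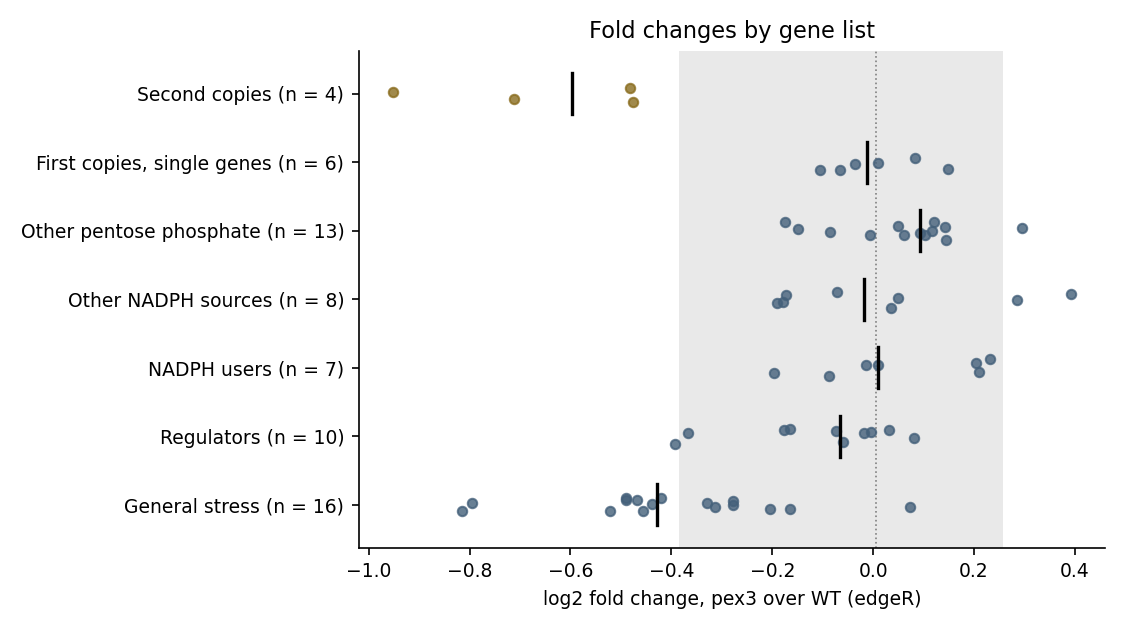
Log2 fold change of pex3 over WT for the genes of each list, with 1 point per gene and a black bar at each median. The grey band spans the 5th to 95th percentile of all tested genes, from -0.39 to 0.26, and the dotted line their median of 0.006; the second copies lie left of the band, and general stress genes have a median of -0.43.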

How the data were processed

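The authors deposited a table of whole-number read counts, and each column was matched to the sample with the same strain and number in its title. The submitters' processing notes name fastp 0.20.0, STAR, RSEM 1.3.3 and build R64 without giving their roles; if RSEM made the counts, they are rounded estimates in which shared reads were split. The annotation, the strand setting and filters are not given in the sources used here. Strand-specific poly(A) libraries were made, per the labels' protocols. RefSeq places no other gene over any of the 10 genes. The counted rows YBR116C and YHR182C-A, next to TKL2 and GND1 by systematic name, have no RefSeq entry. Whether they overlap those genes could therefore not be checked.

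Counts were fitted with edgeR 4.0.16 (quasi-likelihood, TMM factors, filterByExpr, strain only) in R 4.3.3, over 5628 rows of all 6 libraries, with Benjamini-Hochberg adjustment at 0.05. The fit was also run on simulated counts drawn independently for each gene and library. Those counts held no shared culture effects or length trends, so that run cannot vouch for the p-values here. The SE is the fold change divided by the square root of F. The edgeR p-values set the strain difference against the spread between cultures, with each gene's spread moderated by that of all genes. The labels call the cultures biological replicates. Levels use CDS lengths from R64, without untranslated regions. Ratios carried a pseudocount of 0.5 counts, and log2 CPM a prior count of 2. Named genes were the 10 members, up to 3 genes per list with the largest absolute fold change and the 5 genes nearest to TKL2, and further list members were named as background for the pathway after their values were seen. The members and lists were chosen with earlier results of these data known. Alternatives were DESeq2 1.42.0, limma voom 3.58.1, other factors and filters, a length offset (loess, span 0.3), the replicate block and leaving out each library. In the column headers, same-numbered cultures of both strains share a prefix whose meaning is not given. Same-numbered libraries deviated from their strain means with correlations of -0.16, 0.23 and -0.26. These cannot settle whether cultures were paired, so the main fit was left unpaired and the replicate block was given as an alternative.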

Additional observations from a re-analysis of the deposited data

How the results depend on the processing

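Over 15 alternative fits the 10 genes gave 150 log2 fold changes, of which 143 kept their direction and their side of the 0.05 threshold, 4 became called and 3 changed sign. DESeq2 called 3 of the 10 genes, and 26 genes higher and 32 lower among all genes, against 8 and 2 in edgeR. The replicate block called 1 gene higher and 0 lower, with 401 at an unadjusted p under 0.05, and 0 of the 10 genes. With the block TKL2 was at -0.92 (edgeR adjusted p 0.506) and GND2 at -0.72 (edgeR adjusted p 0.352). Over the fits that leave out one library, 3 to 12 genes were called higher, 0 to 5 lower and 0 to 1 of the 10, which was TKL2 without WT replicate 1. ZWF1 ranged from -0.26 to 0.054 in them, changing sign without pex3 replicate 1, and GND1 from -0.087 to 0.12, negative at -0.011 without pex3 replicate 3 and at -0.087 without WT replicate 1; the cause was not tested. TKL2 ranged from -1.10 to -0.69, GND2 from -0.80 to -0.60, NQM1 from -0.58 to -0.35 and SOL4 from -0.59 to -0.27. The median of the stress list, an alternative chosen after seeing the data, ranged from -0.50 to -0.20. The 9 alternatives that keep all libraries, DESeq2 and the block with the length offset included, moved TKL2 between -0.96 and -0.91. With 3 cultures per strain, differences as small as those of the first copies cannot be told from 0, and their intervals give the sizes that remain possible.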
